A study of Mus musculus with 97 samples.

Results

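Subunits of the receptors for glutamate and for GABA (type A) were followed in RNA of mouse striatum and cerebellum. The members are the 31 genes of a fixed list of symbols, found by symbol among 37810 genes with values in the deposited table, and each symbol matched 1 gene. They comprise 4 AMPA receptor subunits (Gria1 to Gria4), 5 kainate receptor subunits (Grik1 to Grik5), 6 NMDA receptor subunits (Grin1, Grin2a, Grin2b, Grin2d, Grin3a and Grin3b), 7 metabotropic glutamate receptors (Grm2 to Grm8) and 9 GABA-A receptor subunits (Gabra2, Gabra3, Gabra4, Gabra5, Gabrb1, Gabrb2, Gabrg1, Gabrg3 and Gabrd). The list leaves out some subunits that are prominent in these regions, such as Gabra6 and Grin2c, which are described further on from a separate list.

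The study asked how microglia, the resident macrophages of the brain, differ between brain regions. RNA was taken from microglia by TRAP, translating ribosome affinity purification: a GFP-tagged L10a protein is built into ribosomes of the chosen cells, and antibodies to the tag pull these out with the RNA bound to them. All mice were C57BL/6, carried Cx3cr1CreErt2/+(Litt) and Eef1a1LSL.eGFPL10a/+, and received tamoxifen at 4 to 6 weeks of age. Of 97 samples, 28 have values in the table. The Cre is driven by the Cx3cr1 promoter, which is active in microglia and in other macrophages, and switches on the tagged ribosomal protein. Controls were Eedfl/+, so they too carry 1 floxed allele of Eed, a core subunit of the Polycomb repressive complex, and the libraries labelled Eed-ko were Eedfl/fl. There were 24 TRAP libraries, 2 for each combination of region, age (3, 6 or 9 months) and genotype, and 4 libraries of tissue RNA, 2 per region, from 9-month Eedfl/+ mice. The labels describe tissue RNA as the unbound fraction of TRAP, that is, what the capture left behind, but the column name of the first library of each region carries IN and that of the second UB. The labels do not say whether libraries are separate animals, so the tests measure only the spread between these libraries. Eed itself ranged from 13.4 to 30.7 RPKM (median 21.2) in striatal control TRAP and 18.2 to 37.7 (median 25.8) in TRAP labelled Eed-ko, and from 17.3 to 24.1 (median 20.7) and 24.3 to 30.0 (median 28.5) in cerebellum. It was thus no lower in the libraries labelled Eed-ko. The table gives whole genes, which cannot show the loss of a floxed part of one, so the deletion was not checked and the genotype below is the labelled one.

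Glutamate is the main excitatory and GABA the main inhibitory transmitter of the adult brain. AMPA, kainate and NMDA receptors are ion channels of 4 subunits each, whose makeup sets calcium entry, speed and voltage dependence, while metabotropic glutamate receptors act through G proteins. GABA-A receptors are chloride channels of 5 subunits, usually alpha and beta subunits joined by a gamma or delta subunit. The striatum consists largely of GABAergic spiny projection neurons, whereas the cerebellum is dominated by granule cells, with Purkinje cells and Bergmann glia beside them.

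Promoter sequences are shown for 2 pairs of members whose levels are compared below. Gria2 and Gria4 code for subunits of the same receptor family and differed between the regions in opposite directions, and Gabra5 and Gabrg3 are neighbours on chromosome 7 and were both lower in cerebellum. Each stretch is the 250 bases before the transcription start, read 5′ to 3′ on the strand of the gene, from RefSeq's promoter table on build GRCm38.p6. Capitals mark CG dinucleotides, the sites of DNA methylation and the basis of CpG islands. The stretches lie at chr3:80802836-80803085 (minus strand) for Gria2, chr9:4796235-4796484 (minus strand) for Gria4, chr7:57510060-57510309 (minus strand) for Gabra5 and chr7:57387216-57387465 (minus strand) for Gabrg3.
Gria2: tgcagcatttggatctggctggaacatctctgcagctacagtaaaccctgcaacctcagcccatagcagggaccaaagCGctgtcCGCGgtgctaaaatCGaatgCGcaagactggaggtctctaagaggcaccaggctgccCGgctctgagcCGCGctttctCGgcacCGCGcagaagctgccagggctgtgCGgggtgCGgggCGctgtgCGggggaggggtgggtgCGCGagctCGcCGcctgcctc
Gria4: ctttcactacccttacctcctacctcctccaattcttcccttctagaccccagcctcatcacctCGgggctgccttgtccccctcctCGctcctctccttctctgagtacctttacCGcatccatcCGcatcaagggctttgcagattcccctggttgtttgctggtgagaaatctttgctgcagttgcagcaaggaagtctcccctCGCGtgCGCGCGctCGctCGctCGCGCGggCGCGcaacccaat
Gabra5: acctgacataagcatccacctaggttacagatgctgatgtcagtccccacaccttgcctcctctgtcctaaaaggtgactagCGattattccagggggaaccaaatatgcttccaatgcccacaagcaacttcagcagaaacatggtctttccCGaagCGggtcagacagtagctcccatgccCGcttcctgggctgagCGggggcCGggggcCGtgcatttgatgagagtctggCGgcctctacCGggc
Gabrg3: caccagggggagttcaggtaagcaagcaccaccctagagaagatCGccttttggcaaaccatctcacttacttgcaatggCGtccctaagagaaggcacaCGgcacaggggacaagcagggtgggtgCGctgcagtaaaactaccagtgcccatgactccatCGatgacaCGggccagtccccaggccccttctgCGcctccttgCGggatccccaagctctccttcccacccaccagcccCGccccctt
The Gria2 stretch holds 19 CG dinucleotides and the Gria4 stretch 16, gathered toward the transcription start, while those of Gabra5 and Gabrg3 hold 9 each. The promoter table has windows of 300 bases (250 before to 50 after a start) for 22 of the 31 members, 29 windows in all, with 0 to 50 CG dinucleotides and a median of 12, against a median of 7 in all 32851 windows. At least 20 CG dinucleotides stood in 9 of the 29 windows (31.0%) and in 26.5% of all windows. Of 3 short motifs searched on both strands, TGACGTCA, the site of CREB factors, was in 0 of the 29 windows (1.79% of all windows), CAGATG was in 2, those of Gabra5 and Grin3b (6.90%, against 17.2% of all), and CAGCTG was in 0 (16.3% of all). A match or its absence describes these letters in this window only.

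Levels are given in RPKM, read counts scaled to gene length and to the size of the library. The scaling allows for depth but not for differences in makeup between libraries. Setting genes beside each other rests on the gene lengths used for the deposited values, which were not checked. Differences are on the log2(RPKM + 1) scale, which understates changes of genes with low values, and come with a standard error (SE). A difference is called at an adjusted p under 0.05 in limma's two-sided test, adjusted by the method of Benjamini and Hochberg across every gene in the fit. A gene was tested when at least 2 libraries of the fit reached 1 RPKM. The read totals recovered from the values were 21.7 to 187 M in TRAP and 21.5 to 59.5 M in tissue RNA. Of the 31 members, 28 were tested against tissue RNA and 29 among TRAP libraries. Grm6, a receptor of retinal bipolar cells, was at 0 reads in 19 of 28 libraries, where 3 reads would be worth 0.00296 to 0.0258 RPKM, and reached at most 0.117 RPKM. Grin3b never exceeded 0.698 RPKM and was at 0 in 5 libraries, and Grin2d, whose highest value was 1.82 RPKM, was tested among TRAP libraries only.

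The first comparison set cerebellum against striatum in tissue RNA of 9-month controls (n = 2 per region). Of 28 members tested, 10 were lower in cerebellum, where 8.73% of all genes tested were, and 4 were higher, where 6.99% of all genes were. The median log2 difference of the members was -0.72, against -0.00 for all genes. The plot of tissue RNA levels shows every member in the 4 libraries. In tissue, 24 of the 31 members reached 1 RPKM in both striatal libraries and 23 in both cerebellar ones. The count of 4 fell to 2 without either striatal tissue library or without the first cerebellar one, while Gria4 and Grm4 held their calls in all 16 alternative settings. Of the 28 members tested, 5 had both cerebellar libraries above both striatal ones, where 32.3% of all genes tested did, and 19 had them below, where 32.4% did. Tissue markers followed the labels: 10 markers of striatal projection neurons summed to 2139 and 2147 RPKM in striatal and 75.2 and 135 in cerebellar tissue, and 10 of granule and Purkinje cells to 36.9 and 61.4 against 2229 and 2264.

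**Figure D1:**
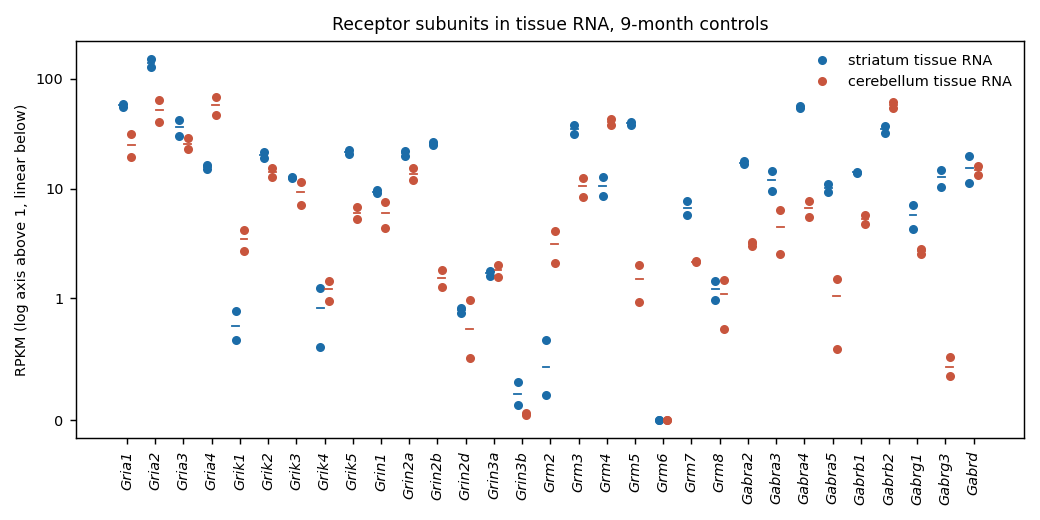
RPKM of the 31 members in tissue RNA of 9-month controls, on a log axis above 1 and a linear axis below. Each dot is 1 library (2 per region, striatum blue, cerebellum red) and each short bar the mean of a region. The 2 regions' dots are apart for 25 members, 20 with striatum above and 5 with cerebellum above, counting 3 members too low to be tested.

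Among AMPA subunits, Gria2 and Gria4 went in opposite directions. Gria2, whose edited form keeps the channel impermeable to calcium, was at 127 and 152 RPKM in striatum and 40.5 and 64.5 in cerebellum. Its log2 difference was -1.43 (SE 0.26, adjusted p = 0.00743, limma). Gria4, a subunit with fast kinetics, was at 16.3 and 15.2 RPKM in striatum and 47.1 and 68.6 in cerebellum. The cerebellar libraries stood above the striatal ones by 1.79 (SE 0.27, adjusted p = 0.00286). Gria1, the subunit recruited in long-term potentiation, was at 59.2 and 55.3 against 19.3 and 31.1 RPKM, a difference of -1.19 that missed the threshold (SE 0.39, adjusted p = 0.0801). Gria3 was at 30.2 and 42.6 against 22.7 and 28.6 RPKM and was not called (-0.48, SE 0.24).

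If the gene lengths used are right, the makeup of the AMPA family can be read within each library, where no scaling between libraries enters. Gria2 made up 54.6 and 57.4% of the summed RPKM of the 4 AMPA subunits in striatal tissue and 31.3 and 33.5% in cerebellar tissue. Gria4 made up 5.71 and 7.01% in striatum and 35.6 and 36.3% in cerebellum. The sum itself was 233 and 265 RPKM in striatum and 130 and 193 in cerebellum. These sums cover the listed members only.

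Kainate receptor subunits differed in both directions. Grik5, a subunit with high affinity for kainate that works only together with Grik1, Grik2 or Grik3, was at 20.6 and 22.3 RPKM in striatum and 6.74 and 5.31 in cerebellum (log2 difference -1.68, SE 0.22, adjusted p = 0.00140). Grik1 was low in both regions and higher in cerebellum, with 0.896 and 0.656 against 2.70 and 4.18 RPKM (1.31, SE 0.27, adjusted p = 0.0134). The other 3 were not called. Grik2, at 12.7 to 21.5 RPKM over the 4 libraries, differed by -0.50, and Grik3, at 7.15 to 12.7 RPKM, by -0.43. Grik4 reached at most 1.44 RPKM in the 4 libraries and its ranges overlapped.

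The NMDA family was marked by Grin2b, the subunit that lends slow decay and binds CaMKII. It was at 24.7 and 26.7 RPKM in striatum and 1.80 and 1.26 in cerebellum (-3.41, SE 0.27, adjusted p = 0.000123). Grin1, the obligate subunit, was at 9.71 and 9.03 against 7.51 and 4.42 RPKM (-0.61, SE 0.28) and Grin2a at 19.9 and 22.0 against 12.0 and 15.3 (-0.59, SE 0.41), and neither was called. Of the summed RPKM of the 6 NMDA subunits, Grin2b held 43.2 and 44.1% in striatum and 5.43 and 7.41% in cerebellum, and Grin2a 34.8 and 36.4% against 49.1 and 66.3%. Grin3a, a subunit that lowers calcium entry, was between 1.57 and 2.02 RPKM in all 4 libraries (0.05, 95% interval -0.74 to 0.85).

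The widest difference of a member on the log2(RPKM + 1) scale was that of the metabotropic receptor Grm5. By the ratio of mean RPKM, striatum over cerebellum, Gabrg3 was wider, at 28.9 against 26.6 for Grm5. Grm5, a group I receptor that signals through phospholipase C and anchors to Homer proteins, was at 40.8 and 38.3 RPKM in striatum and 2.01 and 0.966 in cerebellum (-4.06, SE 0.26, adjusted p = 6.42e-05). Grm4, a group III receptor placed on the terminals of granule cells, was at 8.48 and 12.8 against 38.2 and 42.9 RPKM (1.86, SE 0.23, adjusted p = 0.00117). Grm3, a group II receptor of astrocytes and neurons, was lower in cerebellum, at 38.1 and 31.8 against 12.6 and 8.42 RPKM (-1.66, SE 0.25, adjusted p = 0.00281). Its relative Grm2 went the other way at low levels, 0.662 and 0.210 against 4.14 and 2.12 RPKM (1.50, SE 0.31, adjusted p = 0.0137). Grm7, another group III receptor, was at 7.68 and 5.76 against 2.17 and 2.14 RPKM (-1.28, SE 0.29, adjusted p = 0.0197), a call lost in 6 of 16 alternative settings with adjusted p up to 0.177. The calls of Grm2 and Grik1 were lost in 3 of 16 and 4 of 14. Grm8 was at 0.752 to 1.46 RPKM with overlapping ranges. Grm5 and Grm4 held opposite places in the family's makeup. Grm5 held 42.0 and 42.6% of the summed RPKM of the 7 receptors in striatum and 1.69 and 3.32% in cerebellum, and Grm4 held 8.72 and 14.3% against 63.1 and 74.9%.

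Of the 9 GABA-A subunits, 4 were lower in cerebellum and 0 higher. Gabra4, an alpha subunit that often pairs with delta outside synapses in the forebrain, was at 56.0 and 54.8 RPKM in striatum and 5.54 and 7.73 in cerebellum (-2.90, SE 0.21, adjusted p = 9.24e-05). Gabra2, a synaptic alpha subunit, was at 17.7 and 16.8 against 2.97 and 3.23 RPKM (-2.15, SE 0.23, adjusted p = 0.000612). The neighbouring genes Gabrg3 and Gabra5 were at 10.4 and 14.9 against 0.516 and 0.359 RPKM (-3.23, SE 0.26, adjusted p = 0.000142) and at 9.23 and 11.0 against 1.51 and 0.583 RPKM (-2.47, SE 0.36, adjusted p = 0.00279). Gabrb2, the beta subunit of the most common receptor, was at 61.2 and 54.8 RPKM in cerebellum and 37.5 and 32.4 in striatum. Its cerebellar mean of 58.0 RPKM lay beside those of Gria4 (57.8) and Gria2 (52.5), whose order differed between the 2 libraries. Its ranges were apart, yet the difference missed the threshold (0.72, SE 0.22, adjusted p = 0.0668). Gabrd, the delta subunit that carries tonic inhibition of granule cells, was at 13.3 and 16.2 RPKM in cerebellum and 11.3 and 19.8 in striatum, a difference of -0.03 with a 95% interval of -1.10 to 1.04. Gabra3 (-1.31), Gabrb1 (-1.28) and Gabrg1 (-0.83) had both cerebellar values below both striatal ones without being called. Within the 9 subunits, Gabrb2 held 58.5 and 61.8% in cerebellar tissue and 18.2 and 21.1% in striatal tissue, and Gabra4 5.60 and 8.26% against 30.8 and 31.6%.

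**Figure D2:**
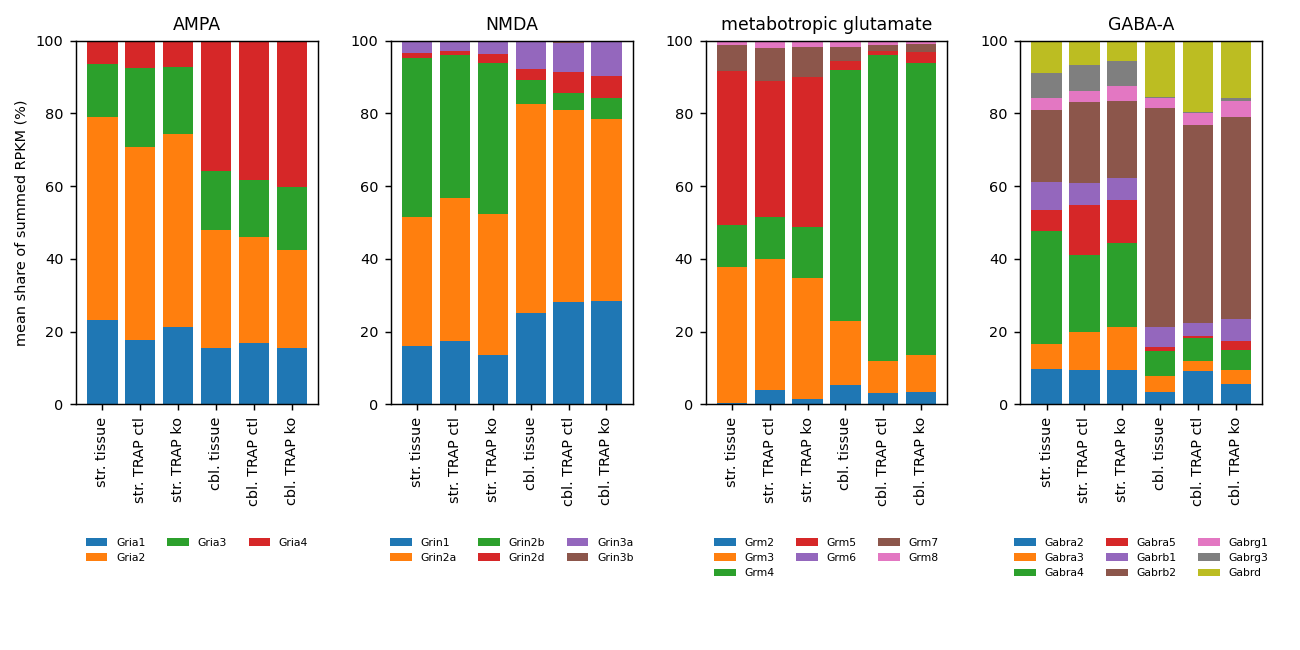
Mean share (%) of each member in the summed RPKM of its family, for AMPA, NMDA, metabotropic glutamate and GABA-A members, in tissue RNA (n = 2 per region) and in TRAP of controls and Eed-ko (n = 6 each). str. is striatum and cbl. cerebellum. Gria4, Grm4 and Gabrb2 take larger and Grin2b, Grm5 and Gabra4 smaller shares in all 3 cerebellar bars than in the striatal ones.

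The second comparison set the captured RNA against tissue RNA, in 9-month controls (n = 2 each). Should the names IN and UB stand for different fractions, the 2 tissue libraries of a region are not replicates of 1 fraction, which the labels do not settle. In striatum, 21 of 28 members were lower in TRAP than in tissue RNA and 0 higher, where 25.9% of all genes tested were lower. In cerebellum, 13 of 28 were lower and 0 higher, where 12.6% of all genes were lower. Median log2 differences of the members were -1.49 in striatum and -0.92 in cerebellum, against -0.19 and -0.09 for all genes tested. At an unadjusted p under 0.05 limma likewise had 0 members higher in TRAP in both regions, and its voom on recovered reads called 0 higher in striatum and 1 in cerebellum. The members were thus mostly lower in TRAP but not absent from it. For comparison, the 12 microglial markers were all higher in TRAP in both regions, with medians of 5.55 and 5.32, and of 9 tested neuronal markers 7 were lower and 1 higher in striatum, and 6 lower and 1 higher in cerebellum, with medians of -1.30 and -1.23. In these bulk libraries, fewer cells of a type and less RNA per cell cannot be told apart. Age is shared by both fractions, but the names of the TRAP and the tissue libraries follow different forms, so the fraction and a library series cannot be told apart.

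**Figure D3:**
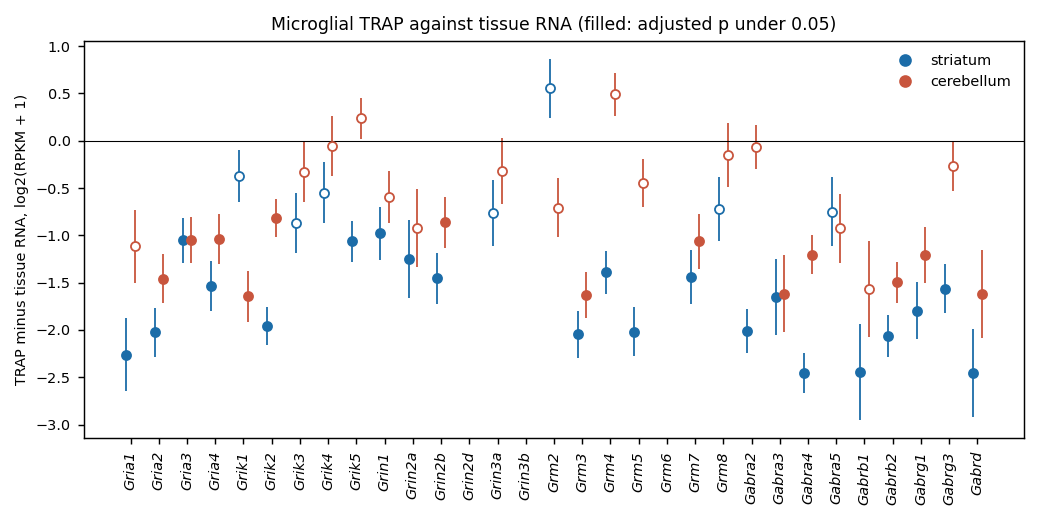
Difference between TRAP and tissue RNA of 9-month controls on the log2(RPKM + 1) scale for each member, in striatum (blue) and cerebellum (red), with standard errors (n = 2 libraries per region and fraction). Filled dots passed an adjusted p of 0.05, and Grin2d, Grin3b and Grm6 were not tested. Nearly all dots lie below 0, with exceptions at Grm2 in striatum and at Grik5 and Grm4 in cerebellum.

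In striatum, subunits of all 5 families were lower in the captured RNA. Gabra4 went from 56.0 and 54.8 RPKM in tissue to 9.30 and 9.27 in TRAP (-2.46, SE 0.21, adjusted p = 7.65e-05), and Gria1 from 59.2 and 55.3 to 11.3 and 11.0 (-2.26, SE 0.39, adjusted p = 0.00231). Gria2 still held 36.2 and 30.9 RPKM in striatal TRAP after 127 and 152 in tissue (-2.03, SE 0.26, adjusted p = 0.000582). Gabrb2 (-2.06), Gabrd (-2.45), Gabrb1 (-2.45), Grm3 (-2.05), Grm5 (-2.02), Gabra2 (-2.01) and Grik2 (-1.96) were of similar size. Members that were not called in striatum were Grik1, Grik3, Grik4, Grin3a, Grm2, Grm8 and Gabra5. Of these, Grik3 and Gabra5 were not low in tissue, at 12.7 and 12.4 RPKM and at 9.23 and 11.0. Gabra5 was at 3.81 and 8.00 RPKM in TRAP (-0.75, 95% interval -1.59 to 0.09), and Grik3 differed by -0.87 (95% interval -1.60 to -0.14, adjusted p = 0.0552).

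In cerebellum the lowest differences were at Grik1 (-1.65, SE 0.27, adjusted p = 0.00378), Grm3 (-1.63, SE 0.25, adjusted p = 0.00250), Gabrd (-1.62) and Gabra3 (-1.62). Gria4, the AMPA subunit that was high there, had 23.8 and 31.1 RPKM in TRAP after 47.1 and 68.6 in tissue (-1.04, SE 0.27, adjusted p = 0.0235). Gabrb2 had 16.5 and 23.9 after 61.2 and 54.8 RPKM (-1.50, SE 0.22, adjusted p = 0.00221). Grm4 stood out by level, with 51.5 and 63.8 RPKM in TRAP, above the 38.2 and 42.9 RPKM of tissue RNA. That difference was not called (0.49, SE 0.23, adjusted p = 0.150). The cerebellar count of 13 fell to 5 without the second cerebellar tissue library, to 6 without the first, and to 6 without the first cerebellar TRAP library.

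Whether the distance between TRAP and tissue differed between the regions was tested with an interaction term. Of 28 members, 2 were called, Grm4 and Gabra2, where 4.05% of all genes tested were. Grm4 was lower in TRAP in striatum (-1.39) and not in cerebellum (0.49), and the term was 1.88 (SE 0.32, adjusted p = 0.0314). Gabra2 was lower in TRAP in striatum (-2.01) and close to tissue in cerebellum (-0.06), with a term of 1.95 (SE 0.33, adjusted p = 0.0311). Both calls were lost without either striatal TRAP library or any 1 of the 4 tissue libraries, with adjusted p up to 0.164 for Grm4 and 0.165 for Gabra2. The count of 2 became 7 without the first and 5 without the second cerebellar TRAP library. Grm5 (1.57, adjusted p = 0.0548), Gabra4 (1.25, adjusted p = 0.0566) and Grik5 (1.30, adjusted p = 0.0569) were just outside.

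The third comparison set cerebellar against striatal TRAP, averaged over 3 ages (n = 6 libraries per region and genotype). In controls, 7 of 29 members were higher in cerebellum, where 19.2% of all genes tested were, and 10 lower, where 17.9% were. In TRAP labelled Eed-ko, 7 were higher, where 18.6% of all genes were, and 11 lower, where 19.8% were. Median log2 differences were -0.11 and -0.16. When libraries were rescaled to the median of 1248 TRAP-enriched genes, which shifted the median of all genes from -0.00 to 0.59 in controls and from -0.02 to 0.72 in Eed-ko, 11 members were higher and 6 lower in controls, where 47.7% and 4.57% of all genes tested were. In Eed-ko 12 were higher and 6 lower, where 58.2% and 4.31% of all genes were. Members that were called lower on both scales in both genotypes were Grin2b, Grm5, Gabra3, Gabra4, Gabra5 and Gabrg3. Those called higher on both scales in both genotypes were Gria4, Grik1, Grik2, Grm4, Gabrb2 and Gabrd. At 3 months and in tissue RNA, the lanes given in the library names differ between the regions, so lane and region cannot be told apart there.

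Other cells' markers moved with the region. The 10 markers of cerebellar granule and Purkinje cells summed to 920 to 1502 RPKM in cerebellar control TRAP and 6.91 to 10.4 in striatal control TRAP. The 10 markers of striatal projection neurons summed to 349 to 565 RPKM in striatal control TRAP and 54.5 to 61.7 in cerebellar control TRAP. In cerebellar control TRAP, Drd1a, Drd2, Adora2a and Tac1 were at 0 in at least 1 library, and in striatal control TRAP so were Fat2, Pcp2 and Ppp1r17. The 9 general neuronal markers in the table summed to 725 to 1130 RPKM in striatal and 1233 to 1948 in cerebellar control TRAP, the 9 astrocyte markers to 43.8 to 91.1 and 236 to 420, and the 8 oligodendrocyte markers to 119 to 229 and 129 to 272. Markers of border macrophages, 5 genes of cells that the Cre can also reach, summed to 8.08 to 93.9 and 8.88 to 278 RPKM, and 5 endothelial markers to 2.44 to 17.9 and 2.06 to 8.74. The 12 microglial markers summed to 4814 to 5940 RPKM in striatal and 1390 to 2903 in cerebellar control TRAP, so the cerebellar libraries held less of them. The part of these cells in the members' differences was not tested.

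**Figure D4:**
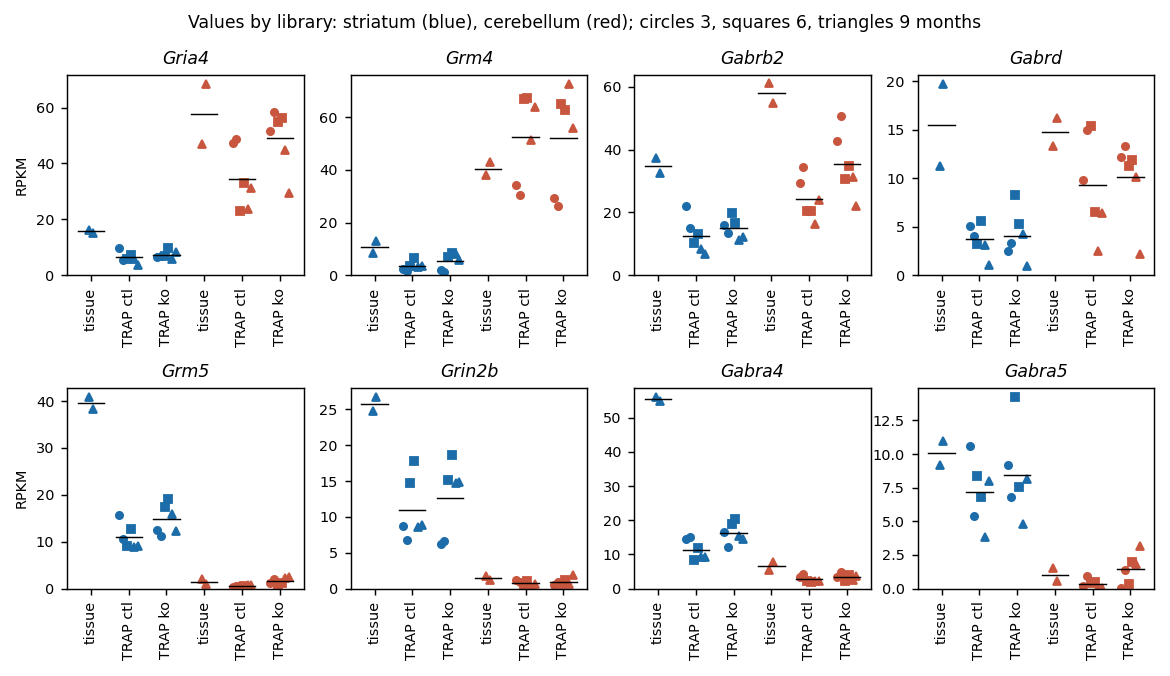
RPKM of 8 members in all 28 libraries, in tissue RNA (n = 2 per region), TRAP of controls and TRAP of Eed-ko (n = 6 each), for striatum (blue) and cerebellum (red). Marker shapes give the age and black bars the mean. Gria4, Grm4, Gabrb2 and Gabrd in the upper row are higher in cerebellar than in striatal TRAP on average, and Grm5, Grin2b, Gabra4 and Gabra5 in the lower row are lower.

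Grm4 and Gria4 were the members highest in cerebellar TRAP relative to striatal TRAP. Grm4 ranged from 1.62 to 6.52 RPKM (median 3.36) in striatal controls and from 30.6 to 67.3 (median 57.7) in cerebellar controls. The lowest cerebellar library stood well above the highest striatal one, with a log2 difference of 3.60 (SE 0.14, adjusted p = 1.39e-12). In TRAP labelled Eed-ko the ranges were 1.33 to 8.28 and 26.2 to 72.6 RPKM, and the difference 3.13 (SE 0.14, adjusted p = 9.40e-12). Gria4 ranged from 3.78 to 9.82 RPKM (median 5.93) in striatal and 22.9 to 48.8 (median 32.0) in cerebellar controls (2.25, SE 0.17, adjusted p = 6.97e-09). Its Eed-ko ranges, 5.84 to 9.86 and 29.4 to 58.3 RPKM, were apart as well (2.56, SE 0.17, adjusted p = 1.29e-09). The ranges of Grik2 were apart in controls, 3.91 to 5.64 against 5.93 to 8.91 RPKM (0.64, SE 0.20, adjusted p = 0.0183), but not in Eed-ko.

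Gabrb2 and Gabrd, which were not called in tissue, were higher in cerebellar TRAP. Gabrb2 ranged from 6.79 to 22.1 RPKM (median 11.8) in striatal and 16.5 to 34.3 (median 22.2) in cerebellar controls (0.93, SE 0.14, adjusted p = 2.92e-05). Gabrd ranged from 1.07 to 5.58 RPKM (median 3.65) against 2.49 to 15.4 (median 8.20), with overlap (1.04, SE 0.33, adjusted p = 0.0173). Gabrd was called in Eed-ko too (1.14, adjusted p = 0.00975), but its control call held in 28 of 37 alternative settings. The control calls of Grik1 (0.50, adjusted p = 0.0373) and Grin2d (0.50, adjusted p = 0.0361), both near or under 1 RPKM, held in 22 of 37 and 23 of 36 settings. Without the first striatal control library of 6 months 3 members in place of 7 were called higher, and without the second 3-month control library of either region 4 were.

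Grm5, Grin2b, Gabra5 and Gabrg3 were the members lowest in cerebellar TRAP. Grm5 ranged from 8.85 to 15.8 RPKM (median 9.82) in striatal and 0.411 to 0.795 (median 0.535) in cerebellar controls (-2.90, SE 0.17, adjusted p = 2.43e-10). Grin2b ranged from 6.79 to 17.9 RPKM (median 8.81) against 0.147 to 1.24 (median 0.784), a difference of -2.76 (SE 0.18, adjusted p = 1.65e-09). Gabra5 ranged from 3.81 to 10.6 RPKM (median 7.41) against 0.0348 to 0.965 (median 0.320), with -2.56 (SE 0.28, adjusted p = 8.54e-07). Gabrg3 ranged from 3.33 to 4.38 RPKM (median 3.55) against 0.000869 to 0.464 (median 0.195), with -1.95 (SE 0.16, adjusted p = 2.42e-08). None of these ranges overlapped in either genotype. Gabra4, at 8.48 to 15.0 against 1.93 to 4.31 RPKM (-1.73, SE 0.15, adjusted p = 6.59e-08), and Gabra3, at 2.49 to 10.0 against 0.447 to 1.72 RPKM (-1.53, SE 0.24, adjusted p = 6.09e-05), followed the same order.

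Smaller differences depended on the scale. Gria2 (-0.81), Grm3 (-1.07), Grm7 (-0.91) and Grik5 (-0.53) were called lower in control TRAP on the deposited scale and not after rescaling to TRAP-enriched genes, where Grik5 turned to 0.06. Gria1 had the same median of 15.7 RPKM in striatal and cerebellar control TRAP (-0.01, 95% interval -0.39 to 0.37). In its share of AMPA subunits, which no scaling changes, Gria2 held 48.9 to 55.2% in striatal and 24.8 to 39.5% in cerebellar control TRAP, and Gria4 held 5.98 to 9.65% and 28.8 to 44.1%. Both shares thus differed between the regions in the same direction as in tissue. Shares within a family are tied, since a higher share of Gria4 lowers those of the other subunits. The shares of Gria3 overlapped between the regions in both fractions. They were 13.0 to 16.0% in striatum and 14.8 to 17.6% in cerebellum in tissue, and 13.8 to 27.7% and 13.1 to 19.2% in control TRAP. Grm4 held 68.4 to 90.4% of the metabotropic sum in cerebellar and 5.77 to 16.8% in striatal control TRAP, and Grin2b 1.45 to 8.54% and 31.1 to 44.7% of the NMDA sum.

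Tissue RNA and control TRAP share no library in the 2 region comparisons, although the 9-month control TRAP libraries contribute to the estimate of spread for tissue. Of the 28 members tested in both, 14 were called in tissue and 16 in control TRAP, and 12 in both, which is 85.7% of the former and 75.0% of the latter. Over all 13988 genes tested in both, 1599 were called in both, 73.7% of those called in tissue and 27.5% of those called in control TRAP, and 96.4% of them had the same sign. All 12 members had the same sign in both, 3 higher (Gria4, Grik1 and Grm4) and 9 lower in cerebellum. Gabra2 and Grm2 were called in tissue alone, and Gabra3, Gabrb2, Gabrd and Grik2 in TRAP alone. Over the 28 members, the log2 differences of tissue and TRAP had a Pearson r of 0.897, given as a description of genes that share libraries within each fraction. The tissue difference was the larger of the pair for 20 members. Grm4 was an exception, with 1.86 in tissue and 3.60 in TRAP, and Gabra2 the reverse, with -2.15 in tissue and -0.31 in TRAP.

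**Figure D5:**
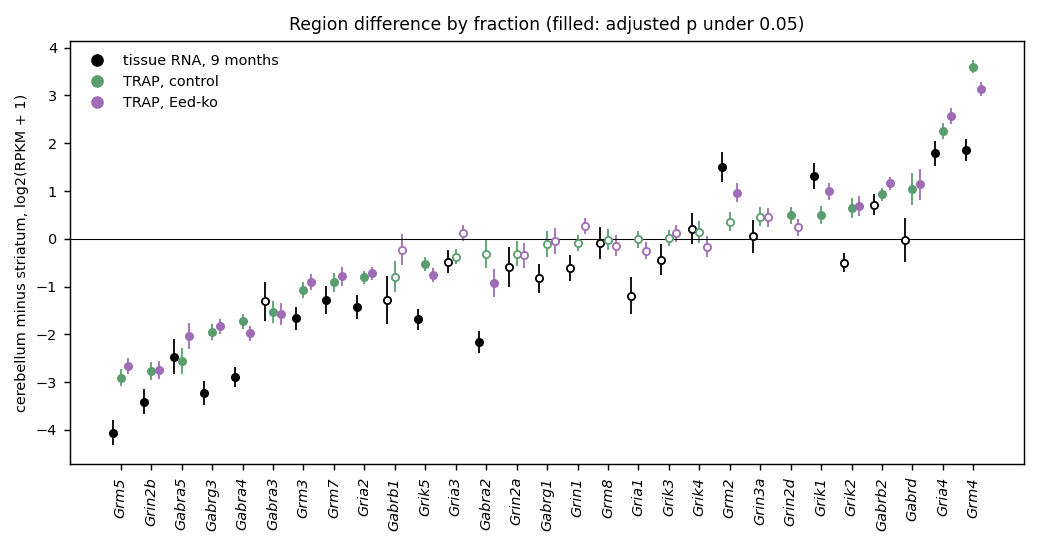
Cerebellum minus striatum on the log2(RPKM + 1) scale with standard errors, for the 29 members tested, ordered by control TRAP. Black is tissue RNA of 9 months (n = 2 per region), green control TRAP and purple Eed-ko TRAP (n = 6 per region each), and filled dots passed an adjusted p of 0.05. At the ends are Grm5 at -4.06, -2.90 and -2.66 and Grm4 at 1.86, 3.60 and 3.13. Tissue RNA and control TRAP have the same sign for 25 of the 28 members tested in both. Among others, they part in size at Gabra2 and Grm4 and in sign at Grik2.

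Some of the GABA-A members lie next to each other in the genome, by the gene order of RefSeq. These neighbours were picked for description after their values were seen. On chromosome 7, Gabrg3 and Gabra5 were both lower in cerebellum, by -3.23 and -2.47 in tissue and -1.95 and -2.56 in control TRAP, and all 4 differences were called. On chromosome 5, where Gabra4 adjoins Gabrb1 and Gabrg1 adjoins Gabra2, the 4 genes had negative differences in both fractions, with Gabra4 called in both and Gabra2 in tissue. In control TRAP, Gabrg1 (-0.11, SE 0.28) and Gabra2 (-0.31, SE 0.29) were close to 0 for their errors. After rescaling to TRAP-enriched genes they were at 0.48 and 0.28, so their sign in TRAP depended on the scale.

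Other receptor subunits, from a list of 16, went mostly the other way from the members. Of 11 tested in tissue, 5 were higher and 1 lower in cerebellum, with a median log2 difference of 1.33. Of 12 tested in control TRAP, 8 were higher and 1 lower, with a median of 0.75. Among all genes tested, 6.99% were higher and 8.73% lower in tissue, and 19.2% and 17.9% in control TRAP. Gabra6, the alpha subunit of cerebellar granule cells, was at 244 and 245 RPKM in cerebellar tissue and at most 0.243 in striatal tissue. It was still at 96.3 to 186 RPKM in cerebellar control TRAP, against 0 to 0.350 in striatal control TRAP. Grin2c, an NMDA subunit of granule cells and astrocytes, was called higher in both (1.72 in tissue, 2.51 in TRAP). Against tissue RNA, 6 of the 11 were lower in striatal TRAP and 7 in cerebellar TRAP, and 0 higher, where 25.9% and 12.6% of all genes were lower.

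Auxiliary subunits and anchors of the receptors, 32 of 33 listed genes with values, were lower in cerebellar tissue for 15 and higher for 6, with a median of -0.64. In control TRAP, 10 were lower and 8 higher, with a median of -0.00. Among all genes tested, 8.73% were lower and 6.99% higher in tissue, and 17.9% and 19.2% in control TRAP. The 8 higher in control TRAP are therefore not read as particular to this list. Neto1, an auxiliary protein of kainate receptors, had the largest fall (-5.39 in tissue, -4.38 in TRAP), and Homer1, the postsynaptic anchor of Grm5, was lower by -2.10 and -1.42. Shisa6, an AMPA receptor auxiliary protein (4.04 and 3.29), Homer3, the Purkinje cell relative of Homer1 (3.04 and 1.79), and Cacng2, the stargazin of AMPA receptors (0.94 and 1.40), were higher in both. Compared with tissue RNA, 25 of the 32 were lower in striatal and 11 in cerebellar TRAP, and 0 higher, where 25.9% and 12.6% of all genes were lower.

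Genes that supply or clear the transmitters, 18 in the list, were higher for 4 and lower for 5 in cerebellar tissue. In cerebellar control TRAP 8 were higher and 3 lower. Among all genes tested, 6.99% were higher and 8.73% lower in tissue, and 19.2% and 17.9% in control TRAP. Slc1a6, the glutamate transporter of Purkinje cells, was higher in both (3.75 and 2.19), and Slc1a2, the main astrocyte glutamate transporter, lower in both (-1.56 and -0.99). In striatum, 12 of the 18 were lower in TRAP than in tissue, among them Gad1 (-2.26) and Gad2 (-2.01), the enzymes that make GABA, and 1 was higher. In cerebellum, 8 were lower and 0 higher. The shares of all genes lower in TRAP were 25.9% in striatum and 12.6% in cerebellum.

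The last comparison asked whether the members differed with the labelled loss of Eed in microglia, as TRAP labelled Eed-ko minus control TRAP, averaged over 3 ages (n = 6 libraries per genotype and region). In limma's test 0 of 29 members were called in either region, where 0.106% of all genes tested were called in striatum and 0.373% in cerebellum. At an unadjusted p under 0.05 there were 8 members in striatum, 7 of them higher in Eed-ko, and 10 in cerebellum, all higher. Of all genes tested, 12.3% passed in striatum and 14.8% in cerebellum in either direction, and 6.97% and 6.33% passed as higher. On recovered reads, limma's voom also called 0 in both regions. In each region 25 of 29 members had a difference above 0, where 52.5% of all genes tested did in striatum and 48.2% in cerebellum. The members had medians of 0.22 in striatum and 0.26 in cerebellum, against 0.02 and -0.01 for all genes. These averages hide differences between ages. At 3, 6 and 9 months alone, the medians of the members were -0.07, 0.38 and 0.56 in striatum. In cerebellum they were 0.12, 0.22 and 0.51. The striatal median was thus not above 0 at 3 months, and the ages were not compared by a test. The regions share no library in this comparison, but their libraries carry the same numbers. The labels do not say whether these come from the same animals, so the regions may not be independent. In cerebellum 1 member was called without the second 9-month or the first 6-month library labelled Eed-ko, or without the second 9-month control.

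The smallest adjusted p was that of Gabrb2 in cerebellum (0.53, SE 0.14, adjusted p = 0.0887), which ranged from 16.5 to 34.3 RPKM in controls and 22.0 to 50.8 in Eed-ko, with overlap. Grm5 in cerebellum followed, at 0.411 to 0.795 against 0.334 to 2.39 RPKM (0.64, SE 0.17, adjusted p = 0.0915). In striatum, Gabra4 had the smallest adjusted p, 0.202, with 8.48 to 15.0 against 12.1 to 20.4 RPKM (0.50, SE 0.15). Grm2 was the 1 member of the 8 in striatum that was lower in Eed-ko (-0.51, SE 0.20, adjusted p = 0.320). The 9 neuronal markers summed to 1233 to 1948 RPKM in cerebellar controls and 1647 to 2544 in cerebellar Eed-ko, and to 725 to 1130 and 779 to 1141 in striatum. The 12 microglial markers summed to 1390 to 2903 and 804 to 2973 RPKM in cerebellum, and to 4814 to 5940 and 3256 to 5540 in striatum. Markers of striatal projection neurons summed to 349 to 565 (median 424) RPKM in striatal controls and 380 to 859 (median 593) in striatal Eed-ko, and those of oligodendrocytes to 119 to 229 (median 145) and 152 to 248 (median 235). In cerebellum, markers of granule and Purkinje cells summed to 920 to 1502 (median 1196) and 797 to 1805 (median 1563), and those of oligodendrocytes to 129 to 272 (median 155) and 173 to 304 (median 213). The part of these cells in the members' values was not tested. The difference of the Eed effect between the regions was called for 0 of 29 members, where 0.0% of all genes tested were called. At an unadjusted p under 0.05 that test had 3 of 29 members, where 8.58% of all genes tested passed, a share near that of the members. The smallest adjusted p among members was 0.516.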

How the data were processed

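RNA of microglia captured by TRAP (24 libraries) and tissue RNA (4 libraries) of striatum and cerebellum was analysed from 1 table of the whole series. The labels' protocols describe NuGEN Ovation V2 cDNA and single reads on a NextSeq 500. The authors deposited RPKM values per gene and library, and per the submitters' processing notes bcl2fastq, TopHat2 2.1.0, HTSeq 0.6.0, DESeq2 and build mm9 were used, with no role given for each. Of 37991 lines, 181 held no values. RPKM divided by the smallest step of a gene gave whole reads (within 0.0001) for 100.0% of the 32861 genes above 0, and these reads gave the depth of each library and entered limma's voom as an alternative.

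The members and gene lists were chosen with earlier results of these data known. The text names all 31 members and, from each pathway list, up to 4 genes with the smallest adjusted p in a comparison. Values were taken as log2(RPKM + 1). limma 3.58.1 (R 4.3.3, empirical Bayes with an intensity trend) was fitted to the 8 libraries of 9-month controls (14186 genes, 4 residual degrees of freedom) and to the 24 TRAP libraries (16090 genes, 12 residual degrees of freedom), with 1 mean per group and genes of at least 1 RPKM in at least 2 libraries. Intervals are 95% intervals from these fits. On simulated data the fit was tested with known changes. Alternatives were another pseudocount, no filter, median ratio, quantile and TRAP-enriched scaling, robust variances, voom, replicate blocks, single ages and leaving out each library. Figures were drawn with matplotlib 3.10.9. Sequences are from RefSeq's table on GRCm38.p6, and no coordinates were taken between builds. The other samples of the series were not used here. Some genes of these lists are not reported here by name.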

Additional observations from a re-analysis of the deposited data

Results flagged for a closer look

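Among the members tested in TRAP, each group of 6 libraries of 1 region and genotype was searched for a single library far from the others, with a gap of more than 0.625 of the group's range on the log2 scale. Of 116 such groups 5 held one, where chance gives about 1 in 20. In cerebellar TRAP labelled Eed-ko, the second 9-month library had the lowest Gabrd, 2.147 RPKM against 10.14 to 13.34 in the others, and the highest Gabrg3, 1.223 against 0.3914 to 0.5368 RPKM. The second 6-month library of that group had the highest Gria3, 27.77 against 17.6 to 20.88 RPKM. Gabra2 stood at 7.345 RPKM in the second 6-month cerebellar control, against 2.612 to 3.849 in the others. Grin2d stood at 0.6094 RPKM in the first 3-month striatal control, against 0.1266 to 0.2862.

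In limma's test of whether the distance between TRAP and tissue RNA differed between the regions, Grm4 (interaction 1.882) and Gabra2 (1.946) were called, 2 of 28 members where 4.05% of all genes tested were. Each lost the call in 6 of 15 alternative settings, with adjusted p up to 0.164 and 0.165. Both were lower in TRAP than in tissue in striatum and were not called in cerebellum.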

How the results depend on the processing

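Of the alternative values, 431 counts of members stayed within 1.5 times the reported count and 35 did not. Of the counts over all genes, 321 stayed and 145 did not. Of the log2 differences of members that were called, 1875 kept direction and call, 159 lost the call and 2 reversed. Both reversals came with TRAP-enriched scaling, where Grik5 was at 0.063 in controls and Gria2 at 0.011 in Eed-ko. The same scaling gave 11 higher and 6 lower members in controls, and 12 and 6 in Eed-ko. At 3 months alone, 3 were higher and 6 lower in controls and 7 lower in Eed-ko. At 6 months alone, 3 were higher in controls and 4 in Eed-ko, and at 9 months alone 3 were higher in controls and 6 lower in Eed-ko. Without a filter, 7 members in place of 13 were lower in cerebellar TRAP than in tissue. Quantile normalization gave 1 member higher in striatal TRAP than in tissue and 4 interaction terms above 0, and voom 1 member higher in cerebellar TRAP than in tissue. Except for TRAP-enriched scaling, shares of all genes are not given for these settings or for leaving out 1 library. A changed count is therefore not read as particular to the members, and the causes were not tested.

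Leaving out 1 library at a time, the members higher in cerebellum were 2 to 5 in tissue and 3 to 8 in control TRAP, those lower in cerebellar TRAP than in tissue 5 to 16, positive interaction terms 0 to 7, and those higher in cerebellar Eed-ko 0 to 1. Where 1 library remained in a group, it was assumed to vary like the others. With the title number as a replicate block, 4 members were higher and 10 lower in cerebellar tissue, and 7 and 10 in control TRAP. With the library number as a replicate block, 6 and 10 were in control TRAP, Grin2d losing its call. For each age and genotype, the difference between the 2 TRAP libraries of a region was set against that of the other region. With libraries matched by number, these differences correlated at 0.032 to 0.177, all above 0. By title number the 3-month values were -0.177 in controls and -0.160 in Eed-ko. These values do not settle whether the library numbers mark pairs, and the main fits did not pair them. For tissue RNA the single value of this kind, by title number, was 0.570, where same-numbered libraries also share IN or UB in their names. With 2 tissue libraries per region, the smallest region difference called among members in tissue was -1.28 (Grm7), and Grm6 and Grin3b were too low to be tested.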

Other observations

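Grm4 was lower at 3 months than at 6 and 9 months in all 4 sets of TRAP libraries. It was at 30.6 and 34.3 RPKM against 51.5 to 67.3 in cerebellar controls, and at 26.2 and 29.4 against 55.7 to 72.6 in cerebellar TRAP labelled Eed-ko. In striatum it was at 1.62 and 2.23 RPKM against 3.17 to 6.52 in controls, and at 1.33 and 1.98 against 5.68 to 8.28 in TRAP labelled Eed-ko. Grin1, the obligate NMDA subunit, was lower at 3 months in 3 of 4 sets, and Gabrb2 and Gabrg1 were higher in 3 of 4. These members were picked from the 31 because their ranges were apart in the most sets. How many of all genes do the same was not counted, and these ages were not compared by a test. The 3-month libraries carry names of another form than those of 6 and 9 months, so age and library series cannot be told apart.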
